A study of Homo sapiens with 4 samples.

Results

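The nuclear-encoded subunits of the respiratory chain and of ATP synthase were described in A375 melanoma cells. They were chosen by gene symbol alone among the protein-coding entries of the gene table: symbols that start with NDUFA, NDUFB, NDUFC, NDUFS, NDUFV, UQCR, COX4 to COX8 or ATP5, with SDHA, SDHB, SDHC, SDHD and CYC1, and without the NDUFAF assembly factors. This gave 91 of 19659 protein-coding entries, in a table of 46416 entries. By complex they were 38 entries of complex I, 4 of complex II, 10 of complex III, 19 of complex IV and 20 of complex V. NDUFA4 and its paralogue NDUFA4L2 were placed with complex IV, in which NDUFA4 is now known to sit. Of the 91 entries, 80 reached 10 counts in at least 1 library and are called the detected subunits here.

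A375 is a human malignant melanoma line that the labels give as BRAF-mutated, and encorafenib is an inhibitor of mutant BRAF kinase. The study asked how resistance to encorafenib changes transcription, with a resistant line, A375-R, and a sensitive line, A375-S. Each line was sequenced once without drug and once after 10 nM encorafenib for 48 h, so the 4 groups hold 1 library each. All 4 groups share the BRAF-mutated A375 background and a high-glucose DMEM medium with fetal bovine serum. How the resistant line was derived, and whether it is 1 clone or a pool, the sources used here do not give.

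The respiratory chain passes electrons from NADH (complex I) and succinate (complex II) through complex III to oxygen at complex IV, and pumps protons that drive ATP synthase, complex V. Most of its subunits are made from nuclear genes and imported, and a small core is made from mitochondrial DNA. In melanoma, the lineage factor MITF is known to raise oxidative phosphorylation genes through the coactivator PGC-1α (PPARGC1A), and BRAF inhibition has been described to shift melanoma cells from glycolysis toward oxidative phosphorylation.

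The libraries were made from total RNA with a small-RNA kit, and protein-coding genes held only 0.845% to 1.497% of the counts of each gene table. That left 326919, 307026, 435351 and 215894 protein-coding counts in untreated resistant, treated resistant, untreated sensitive and treated sensitive cells. All values below are given in that order. Levels are counts scaled to 1000000 protein-coding counts a library (CPM). A count of 0 allows up to 9.18, 9.77, 6.89 and 13.9 CPM (3 counts). Ratios are log2 ratios of TMM-scaled counts, each with a 95% interval in brackets for counting error alone. The intervals treat every read as a separate molecule. Amplified reads that carry no molecular identifier are not separate molecules, so the intervals may be too narrow even for counting error. A subunit is called higher or lower where that interval lies wholly on one side of 0. With 1 library a group, no spread between replicates was measured and no difference has a replicate check or a p-value; each ratio compares 2 libraries.

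Of the melanocyte lineage markers, SOX10 had 94, 86, 157 and 73 counts and S100B 49, 134, 53 and 63, while MLANA and TYR were at 0 in all 4 libraries and PMEL and TYRP1 had 1 count each, in treated resistant cells. MITF had 19, 59, 31 and 45 counts, and DCT, a pigment enzyme, had 1, 145, 0 and 332. The 6 immune markers summed to 35, 38, 7 and 17 counts, nearly all CD68 and LYZ, with CD3E, CD14 and MS4A1 at 0 in all 4 libraries. The 8 melanocyte lineage markers summed to 163, 426, 241 and 513 counts, more in the treated library of each line, and the immune sum was larger in both resistant libraries; their part in the results was not tested. The 6 fibroblast markers summed to 4 to 7 counts a library and the 3 endothelial markers to 0 to 1. The 4 keratinocyte markers summed to 40, 39, 32 and 27, with KRT5 and KRT1 at 0 in all 4 libraries. In bulk RNA, fewer cells of a type and less RNA per cell cannot be told apart.

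The subunits took a larger share of protein-coding counts in both libraries of the resistant line. Summed over all 91 entries they held 5259, 5098, 4763 and 2444 counts, which is 1.61%, 1.66%, 1.09% and 1.13% of the protein-coding counts. Of these counts, ATP5F1E alone gave 442, 129, 114 and 51. Encorafenib moved that share little in either line, while the libraries of the resistant line stood about as far above those of the sensitive line with drug as without. Complexes I, IV and V each made up 22.7% to 30.6% of the subunit counts in every library, complex III 14.4% to 16.0% and complex II 1.90% to 2.91%.

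Levels of different subunits were compared per kilobase of coding sequence, as the mean over the 4 libraries. The highest, in CPM per kilobase, were 3709.6 for ATP5F1E, the epsilon subunit of the ATP synthase head, 3606 for COX7A2, 2515 for UQCRH, the hinge protein of complex III, and 2416 for COX7C. The mean of ATP5F1E rests on 1 library: it stood at 8837, 2746, 1711 and 1544 CPM per kilobase, below the 4158, 4475, 2703 and 3088 of COX7A2 in all but untreated resistant cells. The lowest were 30.1 for SDHA, the flavoprotein of complex II, 31.8 for NDUFA9, 46.0 for UQCRC2, a core subunit of complex III, 47.3 for SDHB, and 48.7 for NDUFS1, the largest iron-sulfur subunit of complex I. By complex, the median was 724 CPM per kilobase in complex IV, 355 in complex V, 312 in complex III, 223 in complex I and 59.6 in complex II. The median transcript of the detected subunits was 750 bases long, against 2665.5 over all detected protein-coding genes, and the part of transcript length in these levels was not tested.

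The tissue-restricted forms were at or near 0. COX6A2 and COX7A1, the heart and muscle forms of complex IV subunits, had 0 counts in all 4 libraries. So did COX4I2, a form known from lung and hypoxic cells, NDUFA4L2, which is induced by hypoxia, and the testis forms COX6B2 and COX8C, as well as the readthrough entry NDUFC2-KCTD14. COX7B2 had 5, 2, 4 and 0 counts, UQCRHL 0, 1, 0 and 1, ATP5MGL 0, 1, 0 and 0 and the readthrough entry ATP5MF-PTCD1 0, 0, 7 and 0. Their widely expressed counterparts were all detected: COX4I1 at 422, 541, 379 and 384 CPM, COX6A1 at 346, 289.9, 198 and 167, and COX7A2, the most abundant subunit by counts, at 1435, 1544, 933 and 1065. A form at 0 counts was not detectable at this depth.

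**Figure D1:**
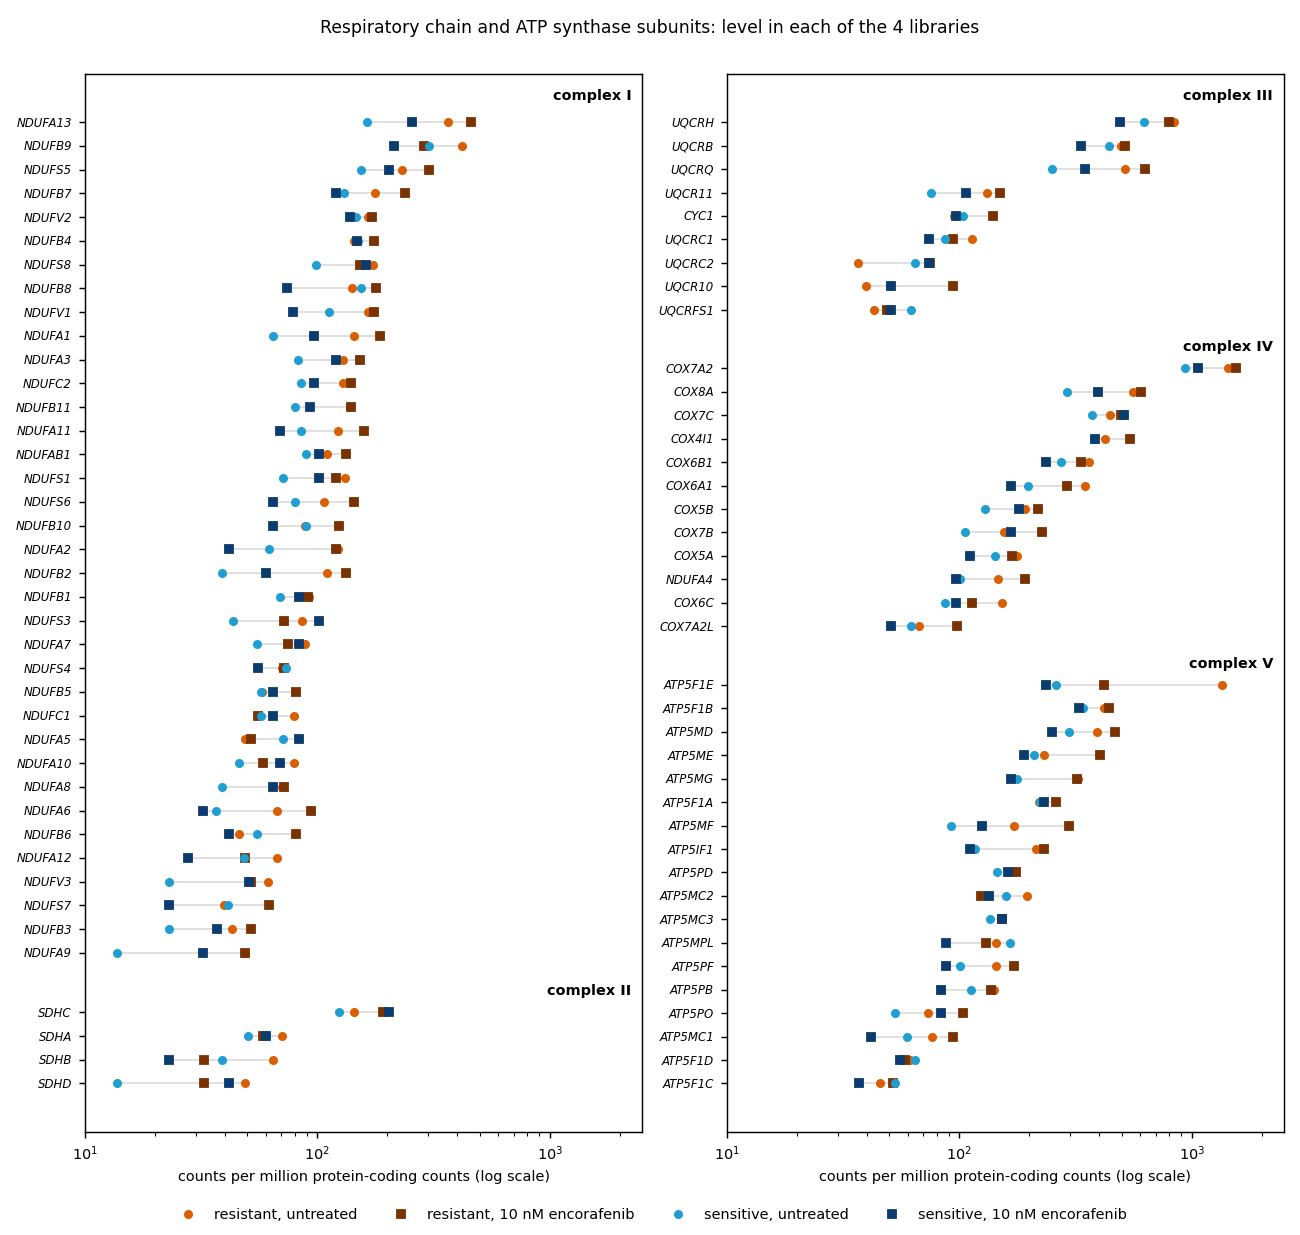
Level of 79 of the 80 detected subunits in the 4 libraries, in CPM on a log axis, grouped by complex. Each symbol is 1 library, orange and brown for the resistant line and blue for the sensitive line, circles without drug and squares with 10 nM encorafenib; COX7A2 and UQCRH are among the most abundant, and for most subunits the resistant libraries lie to the right.

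Without drug, the resistant library held more of most subunits than the sensitive one. The median log2 ratio of the 80 detected subunits was 0.50, a 1.42-fold higher level, where the median over all 7916 detected protein-coding genes was -0.02. The interval lay above 0 for 28 subunits, 35.0%, where 10.2% of all genes were higher, and below 0 for none, where 9.65% of all genes were lower. The summed ratio was 0.59 (0.53 to 0.65), or 1.51-fold. Without ATP5F1E it was 0.50 (0.44 to 0.56), or 1.41-fold. Past a 2-fold difference at the bound nearest 0, where 1.01% of all genes were higher, stood 1 subunit, ATP5F1E.

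The other pair of libraries, under encorafenib, differed in the same direction. The median was 0.52, against 0.05 over all genes, and the summed ratio was 0.57 (0.50 to 0.65). Here 30 subunits, 37.5%, were higher, where 8.11% of all genes were, and 0 were lower, where 6.53% of all genes were. No subunit passed 2-fold in either direction, where 0.682% of all genes were higher and 0.48% lower. The 2 line comparisons share no library, though each shares libraries with the drug comparisons.

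The subunits were counted more deeply than the typical gene, with a median of 144.5 counts over the 4 libraries against 65, which makes an interval easier to place off 0. Among genes with at least 50 counts in a library, 19 of 38 subunits were higher without drug and 23 of 38 (60.5%) under drug, where 19.7% and 18.1% of 1799 genes were, and 0 were lower, where 19.6% and 11% of these genes were. They were also shorter than most genes, as 55 of the 80 had a transcript under 1000 bases against 9.52% of all detected genes. The 696 other genes of that length had medians of 0.09 without drug and 0.25 under drug, with 17.1% and 17.8% higher. Of other genes with longer transcripts, 9.23% and 6.83% were higher. The 25 subunits with transcripts of 1000 bases or more had medians of 0.41 and 0.45, with 24.0% higher in each comparison. The 55 short subunits had medians of 0.50 and 0.53, with 40.0% and 43.6% higher. The part of transcript length in these ratios was not tested.

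Both line comparisons placed 17 subunits above 0, where 2.65% of all genes were above in both. They are NDUFA1, NDUFA2, NDUFA13, NDUFB2, NDUFS5 and NDUFV1 of complex I, UQCRH and UQCRQ of complex III, COX6A1, COX6B1, COX7A2 and COX8A of complex IV, and ATP5F1E, ATP5IF1, ATP5MD, ATP5MF and ATP5MG of complex V. COX6B1 left the list under DESeq2 size factors, NDUFV1 under protein-coding totals, and both under TMM from protein-coding genes, which left 15. Of the 80, 41 were higher in at least 1 of the 2 comparisons, where 15.7% of all genes were, and 0 were lower in either, where 15% of all genes were lower in at least 1. Ratios were positive in both for 56, where 2372 of the 7916 genes were. For 66 of the 80 without drug and 74 under drug, the subunit's own interval held the ratio of the summed counts, and 14 and 6 lay outside it. Intervals are wide at this depth, and only 28 and 30 of them lay above 0. No common value lay within all 80 intervals in either comparison. Without drug, the interval of UQCRQ (0.72 to 1.44) lay wholly above that of UQCRB (-0.10 to 0.52). Under drug, that of ATP5MF (0.63 to 1.94) lay wholly above that of COX7C (-0.37 to 0.36). How far the other subunits share a shift was not tested.

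**Figure D2:**
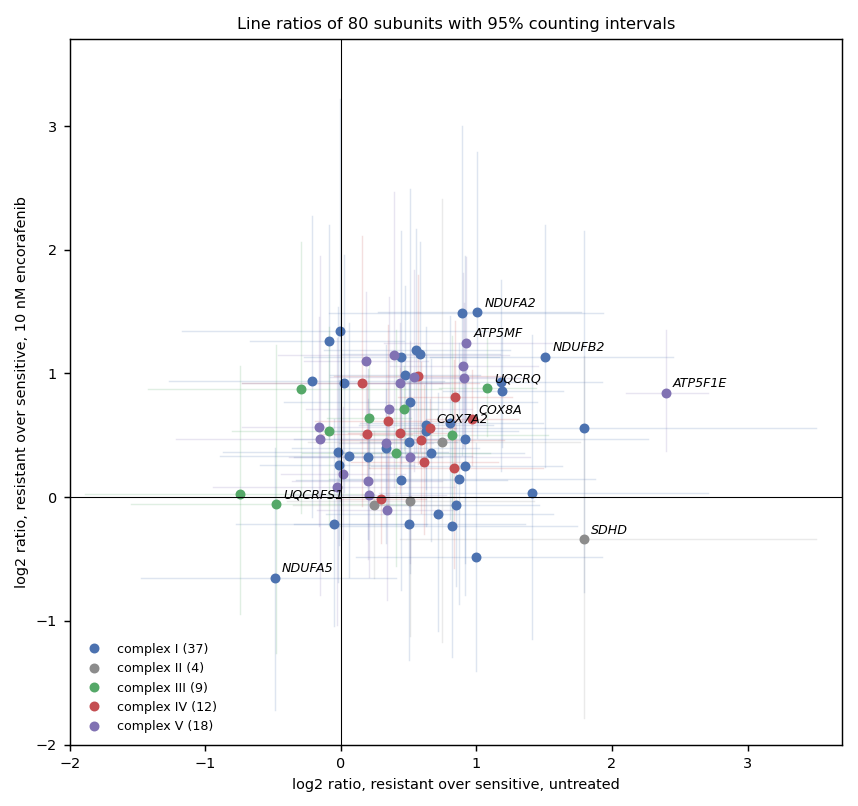
Log2 ratio of the resistant over the sensitive line for each of the 80 detected subunits, untreated on the x axis and under 10 nM encorafenib on the y axis, with 95% counting intervals as faint lines and complexes in colour. Most points lie in the upper right, 56 of 80 with both ratios positive, and ATP5F1E stands apart at 2.40 without drug.

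In complex I, the 37 detected subunits had medians of 0.59 without drug and 0.47 under drug. Of these, 13 (35.1%) and 12 (32.4%) were higher, where 10.2% and 8.11% of all genes were. In both comparisons 0 were lower, where 9.65% and 6.53% of all genes were. NDUFA13, an accessory subunit also known as GRIM-19, measured 364, 456, 163 and 255 CPM. Both resistant libraries were above both sensitive ones, with log2 ratios of 1.19 (0.76 to 1.64) without and 0.85 (0.40 to 1.34) with drug. NDUFB2, an accessory subunit of the membrane arm, measured 110.1, 134, 39.0 and 60.2 CPM, from 13 to 41 counts a library. Its ratios were 1.51 (0.66 to 2.45) and 1.13 (0.24 to 2.20). NDUFA2, an accessory subunit of the matrix arm, had 40, 37, 27 and 9 counts, with the fewest in treated sensitive cells, and its ratios were 1.00 (0.27 to 1.77) and 1.496 (0.48 to 2.79).

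Of the core subunits of complex I, NDUFV1, which carries the flavin that takes electrons from NADH, was higher in both comparisons. It measured 165, 176, 113 and 78.7 CPM, with ratios of 0.59 (0.002 to 1.17) and 1.15 (0.37 to 2.06); the former interval held 0 under TMM from protein-coding genes and under protein-coding totals. NDUFS1, which relays those electrons through iron-sulfur clusters, measured 132, 121, 71.2 and 102 CPM and was higher without drug, at 0.91 (0.22 to 1.63), while the ratio under drug was 0.25 (-0.53 to 1.10). The core subunit NDUFS3 had 28, 22, 19 and 22 counts, the untreated sensitive library being the lowest in CPM and the treated sensitive library the highest. Its line ratio was 0.99 (0.11 to 1.93) without and -0.49 (-1.41 to 0.44) with drug. NDUFAB1, the mitochondrial acyl carrier protein, had 36, 41, 39 and 22 counts and ratios of 0.33 (-0.36 to 1.02) and 0.40 (-0.37 to 1.23), both intervals holding 0.

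Complex II, succinate dehydrogenase, had a summed ratio above 0 in the resistant line without drug, and an interval that held 0 under drug. The ratio was 0.56 (0.15 to 0.97) without drug and -0.04 (-0.49 to 0.43) under drug, from 71 to 107 counts a library. These intervals overlap, and the difference between them was not tested. Relative to gene-table totals, mostly rRNA, the ratio under drug became 0.77. SDHC, a membrane anchor, held 54.5% of the complex's counts, with 144, 192, 124 and 204 CPM, and its line ratios were 0.25 (-0.35 to 0.84) and -0.07 (-0.65 to 0.54). The catalytic subunit SDHA had 23, 18, 22 and 13 counts and ratios of 0.51 (-0.40 to 1.42) and -0.03 (-1.13 to 1.13). For the iron-sulfur subunit SDHB, 21, 10, 17 and 5 counts gave 0.74 (-0.24 to 1.76) and 0.45 (-1.17 to 2.41). SDHD, the other anchor, had 16, 10, 6 and 9 counts and was higher without drug, at 1.79 (0.43 to 3.50). With drug its ratio was -0.34 (-1.79 to 1.14), an interval that held 0. SDHD was the only complex II subunit called in a line comparison, and its near-identical copies make it uncertain.

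In complex III, 3 of 9 detected subunits (33.3%) were higher in each line comparison, where 10.2% and 8.11% of all genes were. UQCRH and UQCRQ were higher in both, UQCR11 without drug and UQCRB under it. UQCRQ, a small subunit beside the cytochrome b core, measured 517, 632, 250.4 and 347 CPM. Both resistant libraries stood above both sensitive ones, with ratios of 1.08 (0.72 to 1.44) and 0.88 (0.49 to 1.29). UQCRH measured 838, 795, 622 and 491 CPM and had ratios of 0.46 (0.21 to 0.71) and 0.71 (0.38 to 1.06). UQCRB measured 496, 515, 439 and 333 CPM, lowest in treated sensitive cells, and its ratio was 0.21 (-0.10 to 0.52) without drug and 0.64 (0.24 to 1.07) with it. Of the core and redox subunits, UQCRC1 had ratios of 0.41 and 0.35, UQCRC2 -0.74 and 0.02, the Rieske iron-sulfur protein UQCRFS1 -0.48 and -0.05, and cytochrome c1, CYC1, -0.08 and 0.53. All 8 of those intervals held 0, on 11 to 45 counts a library.

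Complex IV had 6 of its 12 detected subunits higher in each line comparison and summed ratios of 0.57 (0.46 to 0.68) and 0.50 (0.38 to 0.63). COX7A2, the widely expressed form of subunit VIIa, had 469, 474, 406 and 230 counts. Its ratios were 0.65 (0.46 to 0.85) and 0.56 (0.33 to 0.79). COX8A, the widely expressed form of subunit VIII, measured 557, 603, 292 and 394 CPM, with both resistant libraries above both sensitive ones and ratios of 0.96 (0.63 to 1.30) and 0.63 (0.26 to 1.02). COX6A1 had ratios of 0.84 (0.42 to 1.26) and 0.81 (0.25 to 1.42). COX4I1, the widely expressed form of the subunit through which ATP is known to regulate the enzyme, had ratios of 0.19 (-0.15 to 0.52) and 0.51 (0.13 to 0.91), so its interval held 0 without drug and not under it. NDUFA4 had 0.57 with an interval that held 0 and 0.98 (0.26 to 1.80) under drug. COX7A2L, which is known to join complexes III and IV into supercomplexes, had 22, 30, 27 and 11 counts and ratios of 0.16 (-0.73 to 1.02) and 0.92 (-0.08 to 2.11).

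Complex V had 5 of 18 detected subunits higher without drug and 9 under drug, with medians of 0.35 and 0.64. ATP5F1E stood apart. It had 442, 129, 114 and 51 counts, or 1352, 420.2, 262 and 236 CPM, with the untreated resistant library above the other 3. Its line ratio was 2.40 (2.10 to 2.71) without drug and 0.84 (0.38 to 1.35) with it. ATP5F1E has a near-identical copy, ATP5F1EP2, so their reads cannot be told apart and its values are uncertain. Without it, the summed ratio of complex V without drug was 0.37 (0.24 to 0.49), where it was 0.74 (0.63 to 0.85) with it.

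Of the rotary head, ATP5F1B was narrowly higher under drug, a call that ended under DESeq2 size factors, TMM from protein-coding genes and protein-coding totals. The alpha, gamma and delta subunits were not called in either line comparison. ATP5F1A and ATP5F1B, the alpha subunit and the catalytic beta subunit, measured 220.2, 261, 223 and 232 and 419, 439.7, 340.0 and 329 CPM. Their ratios without drug were 0.02 (-0.44 to 0.47) and 0.34 (-0.01 to 0.68), and under drug 0.19 (-0.33 to 0.73) and 0.44 (0.02 to 0.88). The gamma and delta subunits ATP5F1C and ATP5F1D had ratios from -0.15 to 0.47, all with intervals that held 0. In the membrane part, ATP5MF (subunit f) measured 171, 296, 91.9 and 125 CPM, with ratios of 0.93 (0.32 to 1.55) and 1.25 (0.63 to 1.94). ATP5ME (subunit e) measured 232, 404, 209 and 189.9 CPM and was higher under drug, at 1.10 (0.59 to 1.66), where it was 0.19 (-0.27 to 0.64) without. ATP5IF1, the inhibitor that keeps the enzyme from running in reverse, measured 214, 231, 117 and 111 CPM, both resistant libraries above both sensitive ones, with ratios of 0.90 (0.36 to 1.45) and 1.06 (0.39 to 1.81).

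Encorafenib left the subunits near their untreated levels on average in both lines under TMM scaling. In sensitive cells the median was 0.003 and the summed ratio 0.02 (-0.05 to 0.09), with 4 subunits higher and 5 lower, 6.25%, where 10.6% of all genes were higher and 13.8% lower. In resistant cells the median was 0.07 and the summed ratio 0.004 (-0.05 to 0.06), with 3 higher, 3.75%, and 3 lower, where 8.07% of all genes were higher and 9.32% lower. As folds, the intervals of these sums ran from 0.966 to 1.07 in sensitive cells and from 0.965 to 1.04 in resistant cells. The resistant sum depends on ATP5F1E. Without it, the sum was 0.09 (0.04 to 0.15) in resistant cells, an interval above 0, and 0.03 (-0.05 to 0.10) in sensitive cells. These values depend on the scaling: relative to gene-table totals, mostly rRNA, every log2 ratio shifts by -0.58 in sensitive cells and 0.12 in resistant cells, so that the median in sensitive cells becomes -0.58. That scaling also shifts the line ratios, by 0.10 without drug and 0.80 under drug, both upward. For 66 of the 80 subunits the interval held 0 in both drug comparisons. Among genes with at least 50 counts in a library, 3 of 38 subunits were higher and 5 lower in sensitive cells, where 16% and 29.7% of all genes were, and 2 were higher and 3 lower in resistant cells, where 13.7% and 21.3% were.

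The few subunits that did differ with the drug were of several complexes. In sensitive cells NDUFA13 rose by 0.62 (0.08 to 1.14), NDUFS3 by 1.19 (0.24 to 2.16), SDHC by 0.69 (0.08 to 1.29) and COX7C, a small complex IV subunit, by 0.42 (0.06 to 0.78). Relative to gene-table totals COX7C turned to -0.16. The 5 that fell in sensitive cells were NDUFB8, at -1.05 (-1.97 to -0.28), NDUFB9, at -0.53 (-1.06 to -0.05), UQCRB, at -0.42 (-0.84 to -0.03), UQCRH, at -0.37 (-0.71 to -0.04), and ATP5MPL, at -0.91 (-1.75 to -0.20). NDUFB8, a membrane-arm subunit whose protein is known to be lost when complex I fails to assemble, had 46, 55, 67 and 16 counts, and ATP5MPL, a small proteolipid of ATP synthase, had 47, 40, 72 and 19. In both, the treated sensitive library was the lowest in CPM. The intervals of NDUFB9, UQCRB and UQCRH held 0 under DESeq2 size factors and under TMM from protein-coding genes, which left 2 lower.

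In resistant cells, the lower subunits were ATP5F1E, at -1.72 (-2.02 to -1.44), NDUFB9, at -0.59 (-0.99 to -0.19), and ATP5MC2, at -0.70 (-1.32 to -0.10). ATP5F1E was the only subunit past 2-fold, where 1.52% of all genes were lower by that much and 1.16% higher. In sensitive cells no subunit passed 2-fold, where 2.15% of all genes were higher and 2.48% lower. ATP5MC2 is one of the genes for the c-ring subunit; the others, ATP5MC1 and ATP5MC3, had ratios of 0.26 and -0.04 with intervals that held 0. The higher subunits were UQCR10, at 1.18 (0.22 to 2.27) on 13, 29, 22 and 11 counts, ATP5ME, at 0.75 (0.33 to 1.19), and ATP5MF, at 0.74 (0.25 to 1.26). NDUFB9, with 419, 287, 303 and 213 CPM, was lower after the drug in both lines under the main scaling, and in resistant cells under those alternatives.

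**Figure D3:**
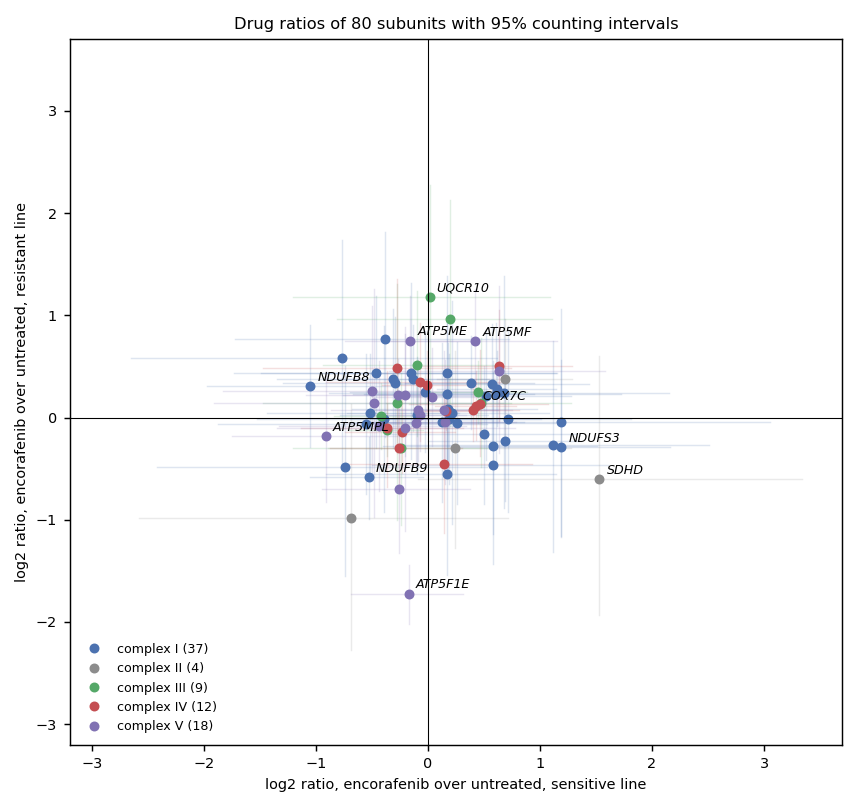
Log2 ratio of encorafenib over untreated for each of the 80 detected subunits, sensitive cells on the x axis and resistant cells on the y axis, with 95% counting intervals as faint lines and complexes in colour. Points gather round 0 on both axes, with medians of 0.0033 and 0.07, and ATP5F1E lies lowest at -1.72 in resistant cells.

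By complex, the summed drug ratios held 0 in both lines for complexes I and III. In resistant cells, complex I was 0.14 (0.03 to 0.25) without NDUFB9 and 0.12 (0.02 to 0.23) under protein-coding totals, and complex III was 0.21 (0.03 to 0.39) without UQCRH. Complex II was higher after the drug in sensitive cells, at 0.50 (0.04 to 0.96), on 71 and 99 counts, and was -0.09 (-0.50 to 0.32) in resistant cells. Without SDHC, its most counted subunit, complex II was 0.24 (-0.50 to 0.96) in sensitive cells and no longer called. Complex IV was 0.14 (0.01 to 0.27) in sensitive cells, with 0.12 (-0.03 to 0.28) and no call without COX7A2, and 0.07 (-0.03 to 0.18) in the resistant line, or 0.12 (0.01 to 0.22) under protein-coding totals. Relative to gene-table totals the ratios of complexes II and IV in sensitive cells turned to -0.081 and -0.45. Complex V was lower in resistant cells after the drug, at -0.20 (-0.31 to -0.09), and its sum without ATP5F1E was 0.15 (0.03 to 0.28), so the direction rests on that 1 uncertain subunit.

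The drug response itself was compared between the lines as the difference of log2 ratios, resistant minus sensitive. Its interval lay above 0 for 2 of the 80 subunits, ATP5ME and NDUFB8, and below 0 for 4, ATP5F1E, NDUFS3, NDUFS8 and SDHD, where 5.99% of all genes were above and 6.16% below.

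The promoters of the detected subunits were searched for letters bound by factors known to control respiratory chain genes: GCGCA, any base and GCGC in a row, the site of nuclear respiratory factor 1 (NRF1), and CCGGAAG, the core of ETS-family sites, which GABP (nuclear respiratory factor 2) also binds. Both strands were searched, so the letters of the other strand are GCGC, any base and TGCGC in a row, and CTTCCGG. The windows run from 250 bases before to 50 after the start of each gene in RefSeq (GRCh38.p14), and 67 of the 80 subunits matched a window. NRF1 letters stood in 16 (23.9%), against 13.6% of the 6589 detected protein-coding genes with a window. ETS letters stood in 20 (29.9%), against 22.5%, and 3 subunits had both kinds. The 120 bases before the start are printed for the 5 subunits furthest above 0 without drug by the bound nearest 0 (ATP5F1E, NDUFA13, UQCRQ, NDUFB2 and COX8A), for COX7A2 and UQCRH, which had the most counts of complexes IV and III, for UQCR11, which has both kinds of letters, and for SDHA and NDUFA11, which have NRF1 letters. Capitals mark NRF1 or ETS letters.
ATP5F1E (chr20:59032336-59032455, minus strand): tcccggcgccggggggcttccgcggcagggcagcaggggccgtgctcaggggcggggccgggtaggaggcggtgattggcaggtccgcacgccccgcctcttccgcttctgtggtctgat
NDUFB2 (chr7:140696588-140696707, plus strand): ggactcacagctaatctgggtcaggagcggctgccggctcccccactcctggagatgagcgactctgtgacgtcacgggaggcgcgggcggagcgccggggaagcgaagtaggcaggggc
NDUFA13 (chr19:19516105-19516224, plus strand): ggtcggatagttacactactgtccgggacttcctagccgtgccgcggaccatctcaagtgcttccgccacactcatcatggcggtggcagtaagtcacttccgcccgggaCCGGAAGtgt
UQCRQ (chr5:132866522-132866641, plus strand): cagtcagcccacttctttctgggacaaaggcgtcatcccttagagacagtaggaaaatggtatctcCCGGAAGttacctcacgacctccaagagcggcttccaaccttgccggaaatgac
COX8A (chr11:63974500-63974619, plus strand): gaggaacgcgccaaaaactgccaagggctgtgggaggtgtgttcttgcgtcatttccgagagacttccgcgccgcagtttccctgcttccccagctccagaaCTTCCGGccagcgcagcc
COX7A2 (chr6:75250299-75250418, minus strand): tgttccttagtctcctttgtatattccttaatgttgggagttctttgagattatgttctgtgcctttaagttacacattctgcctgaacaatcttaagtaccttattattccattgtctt
UQCRH (chr1:46303578-46303697, plus strand): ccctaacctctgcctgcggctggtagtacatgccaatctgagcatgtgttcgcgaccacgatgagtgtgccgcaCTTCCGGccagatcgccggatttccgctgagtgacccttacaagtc
UQCR11 (chr19:1605463-1605582, minus strand): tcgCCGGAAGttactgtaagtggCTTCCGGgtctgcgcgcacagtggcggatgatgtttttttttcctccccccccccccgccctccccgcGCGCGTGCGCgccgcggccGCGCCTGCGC
SDHA (chr5:218200-218319, plus strand): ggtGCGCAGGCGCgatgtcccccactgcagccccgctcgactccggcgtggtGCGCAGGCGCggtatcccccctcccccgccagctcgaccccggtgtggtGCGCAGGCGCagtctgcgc
NDUFA11 (chr19:5903791-5903910, minus strand): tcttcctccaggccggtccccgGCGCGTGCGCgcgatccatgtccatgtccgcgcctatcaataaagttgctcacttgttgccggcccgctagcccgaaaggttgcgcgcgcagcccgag
ETS letters fell at a single place in the printed bases of NDUFA13, UQCRQ, COX8A and UQCRH, and ATP5F1E, NDUFB2 and COX7A2 showed neither kind in theirs or in the whole window. SDHA carried the NRF1 letters at 3 places in its printed bases and 4 in the whole window. A single window was kept per gene, so other starts of a gene were not searched.

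Of the 20 subunits with ETS letters, 18 were higher in at least 1 line comparison and 9 in both, with medians of 0.78 without drug and 0.67 under drug. The 18 were ATP5MD, ATP5ME, ATP5MG, ATP5PF, COX4I1, COX5B, COX6A1, COX6B1, COX8A, NDUFA1, NDUFA13, NDUFB7, NDUFS1, NDUFS3, SDHD, UQCR11, UQCRH and UQCRQ; ATP5PD and SDHB were the other two. Of the 47 subunits without these letters, 17 were higher in at least 1, with medians of 0.45 and 0.47. The 20 were also counted more deeply, with a median of 271.5 counts over the 4 libraries against 113, and the part of depth in the difference was not tested. Among the other detected genes, 13.6% of the 1464 with ETS letters and 15.5% of the 5058 without were higher in at least 1 line comparison. Of the 16 subunits with NRF1 letters, 5 were higher in at least 1, with medians of 0.51 and 0.41 and 86.5 counts. Of the 51 without them, 30 were, with medians of 0.54 and 0.61 and 163 counts, and among the other genes 13.9% with and 15.3% without NRF1 letters were. Both motifs were chosen, and the split was made, after the values were seen; the letters are a description and not a binding site.

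The factors named for these letters were near the detection limit: NRF1 had 3, 3, 5 and 1 counts and GABPA, the DNA-binding subunit of GABP, 11, 7, 14 and 7. PPARGC1A had 2, 3, 0 and 0. These are named outside the naming rule, for the background given above. Of 13 regulators of mitochondrial gene expression, 8 were detected, with medians of 0.09 and 0.21 in the line comparisons and -0.84 and -0.48 after the drug in sensitive and resistant cells. None was higher in any of the 4 comparisons; 1 was lower between lines without drug, 3 after the drug in sensitive cells (13.8% of all genes) and 0 in the other comparisons. YY1 was the 1 between lines, at -0.79 (-1.31 to -0.30), and was at -0.69 (-1.29 to -0.16) after the drug in sensitive cells. TFAM, which packages mitochondrial DNA, had 22, 21, 34 and 7 counts and was at -1.22 (-2.72 to -0.10) in sensitive cells after the drug. TFB1M, a mitochondrial rRNA methyltransferase, had 12, 5, 29 and 0 counts and was lower after the drug in sensitive cells, with the bound nearest 0 at -1.90.

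Other gene lists of the mitochondrion had medians nearer 0 in the line comparisons. Over all genes, 10.2% were higher and 9.65% lower without drug, and 8.11% higher and 6.53% lower under drug. The 31 detected of 45 assembly factors had medians of 0.18 and 0.07. Of these, 2 were higher (6.45%) and 2 lower without drug, and 7 higher (22.6%) and 2 lower under drug. COX17, the copper chaperone of complex IV, was higher in both, at 0.85 (0.18 to 1.54) and 1.60 (0.64 to 2.81). COA1, an assembly factor of complex IV, was lower without drug, at -1.04 (-1.66 to -0.47). Of 71 detected mitochondrial ribosomal protein genes, 7 were higher (9.86%) and 2 lower without drug and 5 higher (7.04%) and 3 lower under drug. Their medians were 0.02 and 0.21. The 20 detected genes of protein import had medians of -0.08 and 0.10, with 0 and 2 higher and 2 and 0 lower. Of the 7 detected electron carriers and other quinone-linked enzymes, cytochrome c, CYCS, was the 1 that was higher, at 0.58 (0.10 to 1.07) and 0.87 (0.23 to 1.59). The 20 detected enzymes of the citric acid cycle and pyruvate dehydrogenase had medians of 0.24 and 0.06, with 2 and 0 higher and 0 lower. DLD, the dihydrolipoyl dehydrogenase of these complexes, was the further of the 2, at 0.89 (0.42 to 1.37).

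Glycolytic enzymes were also higher in the resistant line, with larger medians. Of 17 detected, 9 (52.9%) were higher and 0 lower in each line comparison, where 10.2% and 8.11% of all genes were higher. The medians were 0.92 and 0.77. PKM, pyruvate kinase, had ratios of 1.63 (1.35 to 1.91) and 1.49 (1.14 to 1.88), ALDOA, aldolase, 1.70 (1.31 to 2.11) without drug and LDHA, lactate dehydrogenase, 1.67 (1.17 to 2.23) under drug. After the drug LDHA was lower in both lines, at -1.08 (-1.64 to -0.58) in the sensitive and -0.67 (-0.96 to -0.39) in the resistant one. The median of the list moved less. Of the 17, 2 were higher and 4 lower (23.5%) in sensitive cells, with a median of -0.07, where 13.8% of all genes were lower. The summed ratio there was -0.32 (-0.40 to -0.23). In resistant cells 0 were higher and 2 lower (11.8%), with a median of -0.10, where 9.32% of all genes were lower. The summed ratio in resistant cells was -0.09 (-0.15 to -0.03). The proteasome is another stable multi-subunit assembly. Of its 37 detected genes, 4 were higher (10.8%) and 1 lower without drug and 6 higher (16.2%) and 1 lower under drug. Their medians were 0.16 and 0.41.

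Cytosolic ribosomal protein genes, which are also short and abundant, had other medians. Of 76 detected, 42 were lower (55.3%) and 2 higher in the resistant line without drug, with a median of -0.22, where 9.65% of all genes were lower. Under drug 5 were lower and 21 higher (27.6%), with a median of 0.09, where 8.11% of all genes were higher. After the drug 70 (92.1%) were lower in sensitive cells, median -0.46, and 37 (48.7%) in resistant cells, median -0.19. Of all genes, 13.8% and 9.32% were lower in these drug comparisons. Over the same drug comparisons the medians of the respiratory chain subunits were 0.003 and 0.07. The mitochondrial ribosomal protein genes had -0.39 in sensitive and -0.15 in resistant cells, with 1 higher and 8 lower in sensitive cells. Differences between these lists were described and not tested.

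**Figure D4:**
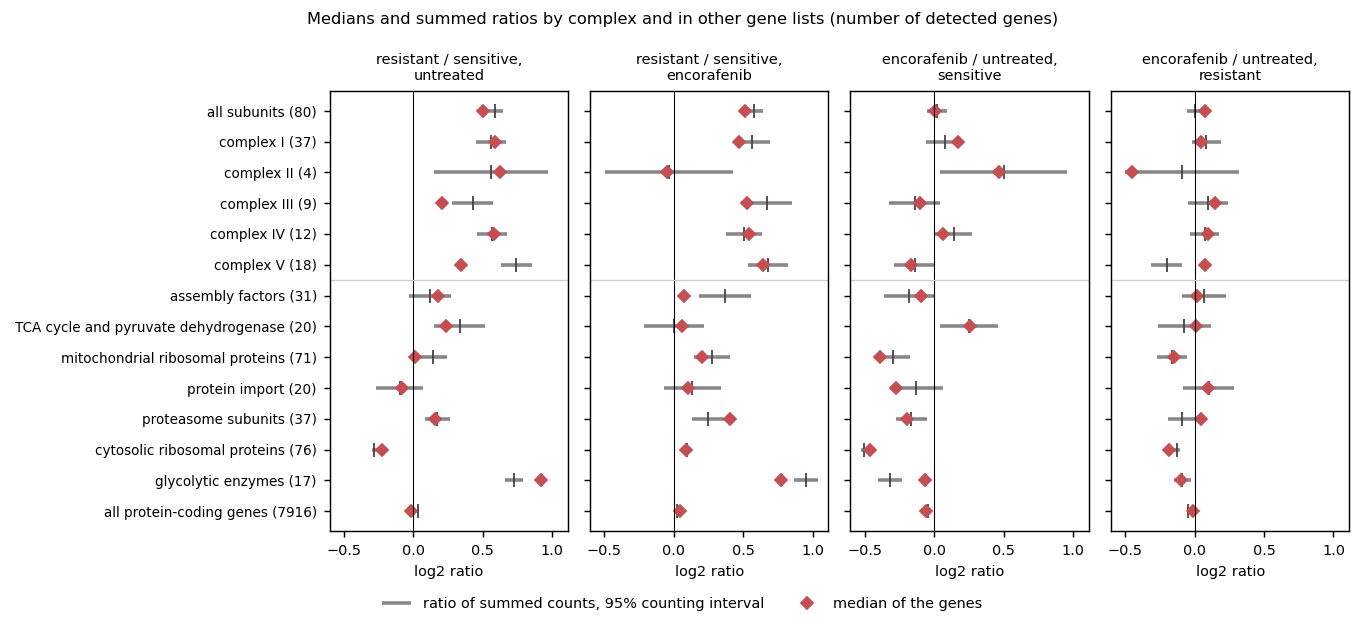
Median log2 ratio (diamonds) and ratio of summed counts with its 95% counting interval (bars) in the 4 comparisons, for the subunits, each complex and other gene lists, with the number of detected genes in brackets. In both line comparisons the subunits sit near 0.50 and the glycolytic enzymes near 0.92 and 0.77, and in both drug comparisons the subunits sit near 0 while cytosolic ribosomal proteins lie below 0.

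Reads of near-identical copies, of a small RNA inside an exon or of entries with identical counts may be split or shared in 24 of the 80 detected subunits, among them ATP5F1E, UQCRH, NDUFA13, COX6A1, COX7C, NDUFB8, ATP5MF, ATP5MD, ATP5MG, SDHA, SDHD and UQCR11. The 56 others had medians of 0.46 and 0.53 in the line comparisons, with 18 and 21 higher and 0 lower. The sources used here do not state whether counting used strand, so reads of antisense genes cannot be told apart from those of the subunits. Subunits encoded by mitochondrial DNA were not analysed here.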

How the data were processed

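Per the labels, total RNA of 4 A375 cell groups was made into libraries with a small-RNA kit and sequenced once per group. The authors deposited whole-number read counts per gene that were not normalized, per the file headers. The submitters' processing notes name hg19 as the build. The sources used here do not name the aligner or counting program. The 4 columns of microRNA counts were not used. Subunits were taken by symbol; members, gene lists and the rule for named genes were chosen with earlier results of these data known. That rule named, per comparison, up to 5 subunits in each direction by the bound nearest 0 (at least 20 counts in the higher library), the 2 most counted per complex, a list of catalytic and isoform subunits, and up to 2 genes per other list; other subunits are named to complete a count or a ranking, and 1 detected subunit is not reported individually here.

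Libraries were scaled by TMM (edgeR 4.0.16, R 4.3.3). Log2 ratios used a prior count of 0.5 and exact conditional (Clopper-Pearson) 95% intervals (scipy 1.17.1); differences of responses used a delta-method interval. Genes needed 10 counts in at least 1 library. Interval code was tested on simulated counts. With 1 library per group no test across replicates was made. Near-identical copies were found with BLAST+ 2.17.0 (at least 95% identity over at least 80% of the coding sequence, GENCODE transcripts). Alternatives were DESeq2 1.42.0 size factors, other totals, other count minimums and a prior of 2, and subunits left out. Leaving out ATP5F1E and the view of genes with at least 50 counts beside all genes were added after seeing the data. Promoter letters came from RefSeq windows (GRCh38.p14). The files use another build, so no gene coordinates were carried over.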

Additional observations from a re-analysis of the deposited data

Results flagged for a closer look

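The response to encorafenib differed between the lines, by an interval of the difference that did not hold 0, for 6 of the 80 detected subunits, 4 of them lower and 2 higher in resistant cells; over all protein-coding genes, 6.16% were lower and 5.99% higher. These are counting intervals from 1 library a group, the difference was not tested against replicates, and no explanation was tested. SDHD, with 16, 10, 6 and 9 counts in untreated resistant, treated resistant, untreated sensitive and treated sensitive cells, had a difference of -2.13 (-3.95 to -0.31) in log2. ATP5F1E, with 442, 129, 114 and 51 counts, had -1.55 (-2.10 to -0.9997); its copy ATP5F1EP2 makes it uncertain. NDUFS3, with 28, 22, 19 and 22 counts, had -1.48 (-2.66 to -0.30), and NDUFS8, an iron-sulfur subunit of complex I with 57, 47, 43 and 35 counts, -0.91 (-1.76 to -0.07). In the other direction, ATP5ME, with 76, 124, 91 and 41 counts, had 0.91 (0.24 to 1.58) and NDUFB8, with 46, 55, 67 and 16 counts, 1.36 (0.40 to 2.31).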

How the results depend on the processing

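No paired analysis was possible because each group has 1 library. Of the main results, 185 stayed within a set limit under the alternatives, 36 moved and 3 reversed. Of the values of named subunits, 577 stayed, 30 moved and 1 reversed. For complex sums and named subunits that limit was their own counting interval. For medians it came from the counting interval of the summed ratio, and for counts it was a fixed fold change. Most changes came with scaling to gene-table totals, which shifts every ratio. It gave medians of 0.60 and 1.32 in the line comparisons (65 subunits higher under drug), -0.58 in treated sensitive cells (0 higher, 27 lower) and 0.19 in treated resistant cells (9 higher). Complex sums I to V were then 1.37, 0.77, 1.47, 1.31 and 1.48 between lines under drug, and -0.51, -0.081, -0.72, -0.45 and -0.73 for the drug in sensitive cells, where II and IV reversed, as did COX7C at -0.16. In resistant cells I, IV and V were 0.20, 0.19 and -0.083. The difference of responses then had 32 subunits above and 1 below. Shares over all genes were computed under the main TMM scaling alone. Counts of subunits under other scalings, here and below, therefore have no share over all genes beside them, and these scalings shift all genes alike.

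For the drug in sensitive cells, DESeq2 size factors and TMM from protein-coding genes each gave 8 higher and 2 lower, and protein-coding totals 7 higher (5 in resistant cells). Leaving out uncertain subunits gave 18 higher between lines without drug, and in sensitive cells a median of -0.082 with 2 higher and 3 lower. A minimum of 50 counts gave medians of 0.60 between lines under drug and -0.071 in sensitive cells. With no count minimum, 1 subunit was lower between lines without drug. Without the most abundant subunit, complex V was 0.37 between lines without drug and 0.15 in resistant cells, a reversal, and complex II -0.61 in resistant cells. Causes were not tested. Depth limits single subunits: 34 of 80 intervals held 0 in all 4 comparisons.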
